A study of Mus musculus with 6 samples.

Results

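The genes described here are the protein folding machinery of the endoplasmic reticulum (ER) and the sensors, transcription factors and degradation factors of the unfolded protein response. There are 47 of them, taken by symbol from a fixed list, and each matched 1 of the 21534 rows of the count table. The question was how their transcripts differed between organoids given retinoic acid and organoids given vehicle. The organoids, closed epithelial cultures also called enteroids, derive from wild-type C57Bl/6 ileum. Every culture was first held for 96 hours in growth medium with 10 µM CHIR99021, a GSK3 inhibitor that raises Wnt signalling and enriches stem cells. Treatment was then 10 µM all-trans retinoic acid or the DMSO vehicle for 24 hours, with 3 polyA libraries from each group. Both groups thus carry the CHIR99021 pretreatment, and cultures enriched for stem cells in this way are a limited model of the whole ileal epithelium.

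Proteins that leave the cell or sit in its membranes enter the ER through the SEC61 channel and fold there with the help of chaperones and disulfide isomerases. When unfolded proteins build up, the membrane sensors IRE1, PERK and ATF6 are released from the chaperone BiP. IRE1 splices the Xbp1 mRNA, PERK slows translation and raises ATF4, and ATF6 is cut in the Golgi to free a transcription factor. In the gut epithelium this response is known for serving Paneth and goblet cells, which secrete large amounts of protein.

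Part of the group shares a promoter element that ATF6 and XBP1 are known to use, the ER stress response element (ERSE). Its sequences are shown for the members that hold an exact match. The motif searched was CCAAT, any 9 bases, then CCACG, on both strands, within windows from 250 bases before to 50 bases after each RefSeq start site (build GRCm38). Windows were found for 38 of the 47 genes. An exact match lay in 10 of the 38 (26.3%), against 37 of 27025 genes (0.137%) and 39 of 32851 windows (0.119%) in the whole RefSeq table. The counts over the whole RefSeq table include the members. The 250 bases before the start site follow for the chaperone genes Hspa5 and Hsp90b1, with the matches in capitals, and Hsp90b1 holds one match on each strand.
Hspa5, GRCm38 chr2:34771840-34772089, plus strand: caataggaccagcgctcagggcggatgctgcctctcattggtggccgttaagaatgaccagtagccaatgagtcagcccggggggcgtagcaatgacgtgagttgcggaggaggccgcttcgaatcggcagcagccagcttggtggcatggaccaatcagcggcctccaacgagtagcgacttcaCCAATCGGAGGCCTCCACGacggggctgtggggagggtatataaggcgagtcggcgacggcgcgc
Hsp90b1, GRCm38 chr10:86705445-86705694, minus strand: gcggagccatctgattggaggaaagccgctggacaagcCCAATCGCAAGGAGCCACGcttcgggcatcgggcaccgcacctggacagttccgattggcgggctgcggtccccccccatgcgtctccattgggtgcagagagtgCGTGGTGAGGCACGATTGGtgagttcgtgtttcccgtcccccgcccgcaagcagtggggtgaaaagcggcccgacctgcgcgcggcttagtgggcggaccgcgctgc
For the other 8 genes each match is shown in capitals with 20 bases on either side, written 5′ to 3′ on the gene's strand. A match that reads CGTGG first lies on the opposite strand.
Calr, GRCm38 chr8:84847055-84847113, minus strand: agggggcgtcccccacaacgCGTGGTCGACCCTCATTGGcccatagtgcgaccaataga
Canx, GRCm38 chr11:50325780-50325838, minus strand: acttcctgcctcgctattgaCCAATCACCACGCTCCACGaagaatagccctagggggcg
Pdia6, GRCm38 chr12:17266471-17266529, plus strand: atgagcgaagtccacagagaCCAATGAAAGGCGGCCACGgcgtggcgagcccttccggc
Ero1lb, GRCm38 chr13:12565662-12565720, plus strand: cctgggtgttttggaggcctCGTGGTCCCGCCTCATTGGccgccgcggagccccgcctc
Dnajc3, GRCm38 chr14:118937807-118937865, plus strand: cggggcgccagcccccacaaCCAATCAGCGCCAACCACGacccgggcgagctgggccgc
Creld2, GRCm38 chr15:88819500-88819558, plus strand: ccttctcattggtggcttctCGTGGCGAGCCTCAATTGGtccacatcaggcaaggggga
Syvn1, GRCm38 chr19:6046512-6046570, plus strand: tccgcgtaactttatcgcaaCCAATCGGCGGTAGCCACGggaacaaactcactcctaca
Derl3, GRCm38 chr10:75893222-75893280, plus strand: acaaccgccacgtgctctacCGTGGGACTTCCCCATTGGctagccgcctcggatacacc
A related element, ERSE-II (searched as ATTGG, any 1 base, then CCACG, on both strands), matched in Herpud1 and Dnajb11 and in 12 of the 27025 genes (0.0444%). Herpud1 is shown with its match in capitals.
Herpud1, GRCm38 chr8:94386357-94386407, plus strand: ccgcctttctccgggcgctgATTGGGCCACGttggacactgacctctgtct
The short core TGACGTG, searched on both strands, lay in Hspa5 and Fkbp11 (5.26% of the 38) and in 2.22% of all genes. No search allowed a mismatch, and ERSE and ERSE-II share the letters CCACG but matched in different members. The windows of Hyou1, Manf, Derl1, Atf6, Ern2, Sec61a1, Ssr2, Sil1 and Creb3l1 were not analysed here.

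**Figure D1:**
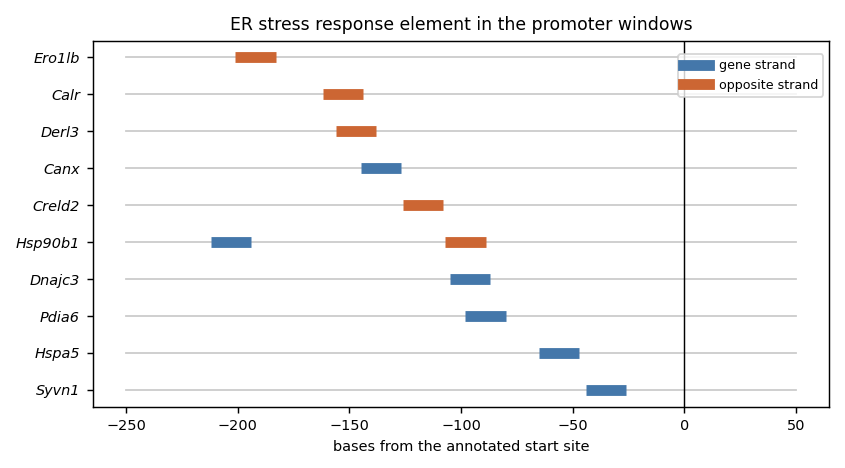
Position of each exact ERSE match (x axis, bases from the RefSeq start site) in the 10 genes that hold one (y axis). Blue matches read on the gene's strand and orange ones on the opposite strand, and every match lies before the start site.

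Library totals ran from 14919144 to 21833846 reads over genes, and the 47 genes took 0.884% to 0.945% of the reads with vehicle and 0.967% to 1.05% with retinoic acid. The groups do not overlap in that share. The first principal component (44.8% of the variance) separated the treatments, and library 3 of each group lay apart from the others on the second (20%). Epithelial markers were high (7 markers, summed level 6995 to 7318 CPM over the 6 libraries), while 9 fibroblast and muscle markers summed to at most 2.07 CPM. CPM here are reads per 1000000 of the TMM-scaled library total, and values of a group are given in the order of libraries 1, 2 and 3. No source used here says if the libraries of a group are separate mice or cultures, so p-values measure the spread between these libraries, which may be technical.

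Of the 46 genes that passed the filter on low counts, 8 rose and 0 fell by edgeR's quasi-likelihood test, with a threshold of 0.05 on the adjusted p (Benjamini-Hochberg). The 8 were Hspa5, Hsp90b1, Sil1, Calr, P4hb, Ero1l, Sec61a1 and Wfs1. Their folds ran from 1.16 to 1.58. That is 17.4% of the tested genes of the group, where 5.37% of all 13700 tested rows were called higher and 4.09% lower (9.46% in either direction). The shares over all rows were not matched for level, and the members' median level was the higher one, as given below. By role the 8 were 3 chaperones or cochaperones of the HSP70 and HSP90 kind, 1 lectin chaperone, 2 isomerases or oxidases, 1 translocon subunit and the membrane protein Wfs1. None of 8 sensors and transcription factors or of 8 tested degradation factors was called, a share near the background for lists of this length, and no test compared the roles.

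At an unadjusted p under 0.05, edgeR gave 17 members higher and 2, Creb3l1 and Sdf2l1, lower, where 21.6% of all tested rows passed in either direction. After adjustment limma-voom called 0 lower, as did edgeR, and DESeq2 called 1, Creb3l1. Leaving out a single library gave 4 higher members without vehicle library 1, and 3 each without vehicle library 3 or without library 1 or 2 of the retinoic acid group. Without its library 3 the count was 12, with Xbp1, Erp44, Ssr1 and Ssr3 added. The calls over all tested rows moved in the same direction, from 736 higher in the main fit. There were 477 and 550 without vehicle library 1 or 3, and 443 and 501 without retinoic acid library 1 or 2. Without retinoic acid library 3 there were 978. Hspa5 and Calr stayed called whichever library was left out.

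Beyond the calls, 35 of the 46 log2 fold changes were above 0 (76.1%), against 48% of all tested rows. The median was 0.11, against −0.01 over all tested rows. All 3 retinoic acid libraries lay above all 3 vehicle libraries for 14 of the 46 (30.4%; 12.9% of all tested rows) and below them for 3 (6.52%; 12.6% of all tested rows). In bulk RNA, a change in the number of cells of a type and a change in RNA per cell cannot be told apart. Crypt base stem cell markers moved with the treatment: 4 of 6 fell and 0 rose, with a summed level of 1569 to 1633 CPM under vehicle and 959 to 1010 CPM under retinoic acid. Of 5 proliferation markers 3 fell, and of 7 enterocyte markers 2 rose and 1 fell. The part of these shifts in the ER genes was not tested.

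**Figure D2:**
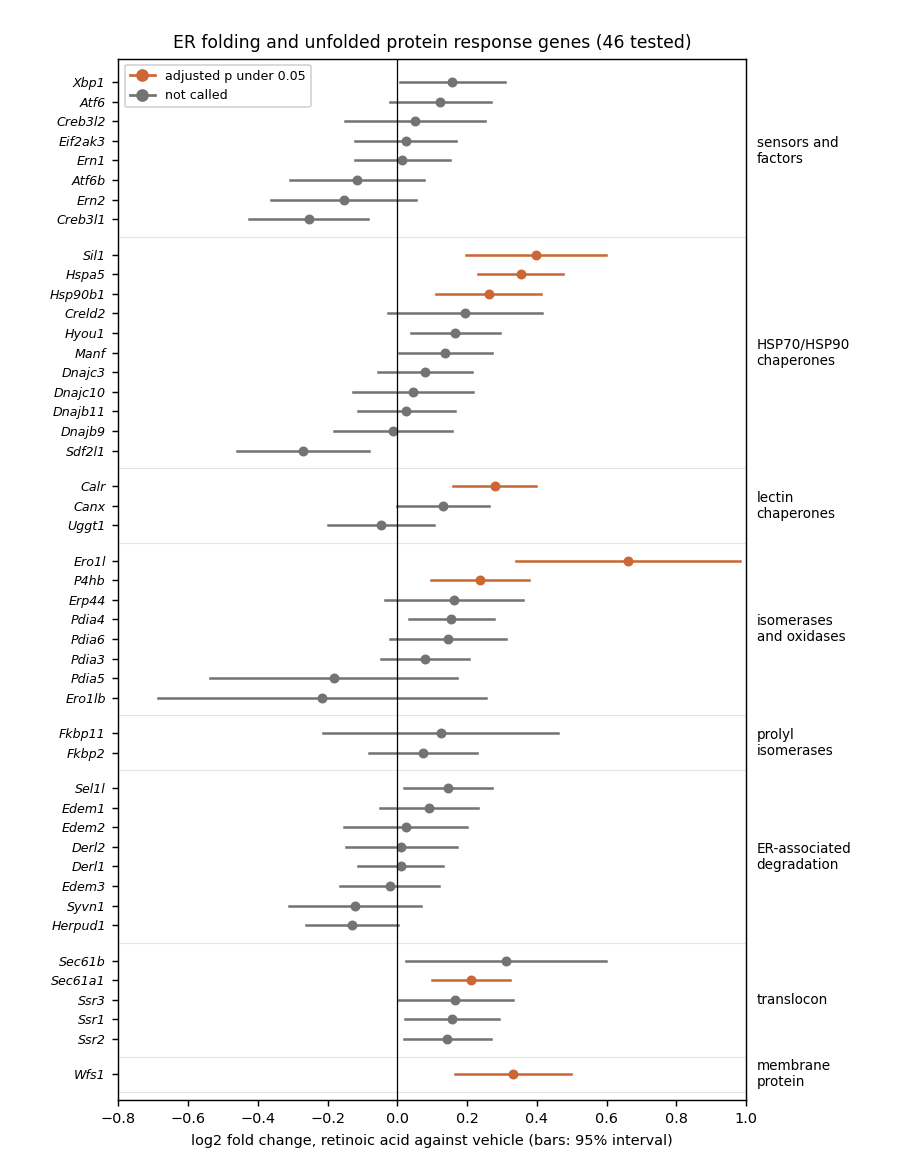
Log2 fold change of retinoic acid against vehicle (x axis) for the 46 tested genes (y axis), grouped by role. Points are estimates from 3 libraries a group, bars their 95% intervals from the quasi-likelihood test, and orange marks the 8 genes at an adjusted p under 0.05, which all lie to the right of 0.

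Among the chaperones of the HSP70 and HSP90 kind with their cochaperones, 3 of 11 tested members rose. Hspa5 encodes BiP, the ER HSP70 that binds nascent chains and holds the stress sensors silent (ENSMUSG00000026864, mm10 chromosome 2, 34771970 to 34776531). It had 950.2, 931 and 879.9 CPM under vehicle, against 1236, 1172 and 1120.4 CPM under retinoic acid. Every retinoic acid library lay above every vehicle library, and library 3 was the lowest of its group in each case. It rose 1.28-fold, from 920.5 ± 36.4 under vehicle to 1176 ± 57.7 under retinoic acid (SD, n = 3; log2 fold change 0.35, SE 0.06, adjusted p = 0.00107 by edgeR). Without any single library its adjusted p was at most 0.00902.

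Hsp90b1 encodes GRP94, the HSP90 of the ER (ENSMUSG00000020048, mm10 chromosome 10, 86690209 to 86705509). Its levels were 309.9, 304 and 274 CPM under vehicle, against 361, 381 and 323 CPM under retinoic acid. The groups did not overlap, and the difference (1.199-fold; log2 fold change 0.26, SE 0.07, adjusted p = 0.0297 by edgeR) did not pass when vehicle library 2 or 3 or retinoic acid library 1 or 2 was left out (up to 0.138). Exons of Hsp90b1 overlap other annotated genes, among them 1810014B01Rik on the opposite strand. Whether the counting used strand is not given in the sources used here, which bears on Sil1 and Sec61a1 too, since both overlap antisense genes.

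Sil1, a nucleotide exchange factor that lets BiP release its substrate, had 28.7, 33.7 and 29.2 CPM under vehicle, against 42.8, 41.4 and 36.5 CPM under retinoic acid. It rose 1.32-fold (log2 fold change 0.40, SE 0.09, adjusted p = 0.0146 by edgeR), with no overlap between groups. Its call was lost without vehicle library 1 or 3 or retinoic acid library 1 or 2 (up to 0.0896).

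The other 8 of these 11 were not called. Hyou1, the large HSP70-like exchange factor GRP170, had 201, 212 and 209 CPM under vehicle, against 229, 222 and 245 CPM under retinoic acid (log2 fold change 0.17, adjusted p = 0.107 by edgeR). Manf, a small secreted ER protein induced by stress, had 109, 105 and 102 CPM under vehicle, against 112, 121 and 113 CPM under retinoic acid. For both, the retinoic acid libraries lay above the vehicle ones, yet neither passed the threshold (adjusted p = 0.217 for Manf by edgeR). Exons of Manf overlap Dcaf1 and 4930524O07Rik on the opposite strand.

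Creld2, another stress-induced ER protein, had 18.1, 18.1 and 20.9 CPM under vehicle, against 20.2, 22.5 and 22.6 CPM under retinoic acid. Its groups overlapped, and the 95% interval of its log2 fold change ran from −0.03 to 0.42. Dnajb9 encodes ERdj4, a J-protein whose gene is a standard XBP1 target. It had 40.1, 38.02 and 36.3 CPM under vehicle, against 38.8, 37.8 and 36.8 CPM under retinoic acid, so the 6 libraries lay close together (log2 fold change −0.01, interval −0.18 to 0.16).

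Sdf2l1, a partner of J-proteins in the BiP cycle and a strongly stress-induced gene, stood lower with retinoic acid, at 61.5, 72.5 and 77.5 CPM under vehicle, against 56.7, 55.4 and 62.96 CPM under retinoic acid. Vehicle library 1 lay below retinoic acid library 3, so the groups overlapped. The log2 fold change of −0.27 (interval −0.46 to −0.08) was not called by edgeR (adjusted p = 0.0743), but passed when vehicle library 1 (0.0237) or retinoic acid library 3 (0.0162) was left out. The J-proteins Dnajb11, Dnajc3 and Dnajc10 had log2 fold changes of 0.03, 0.08 and 0.05, none of them called.

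**Figure D3:**
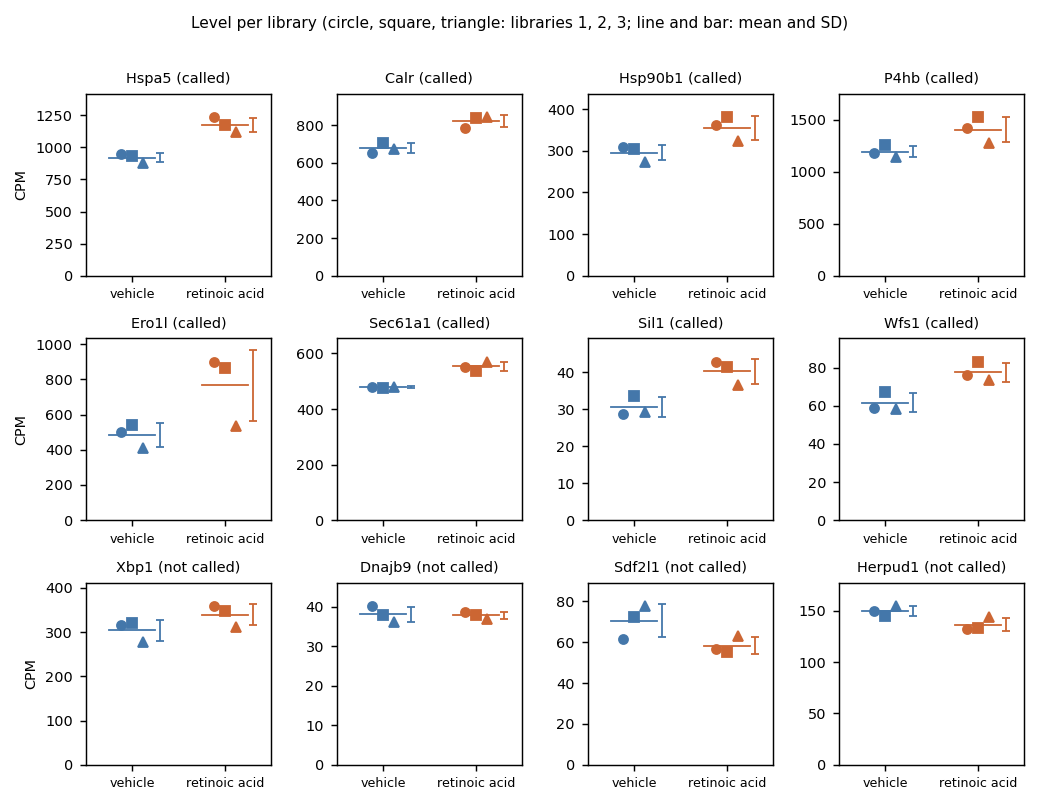
CPM (y axis, from 0) in each vehicle (blue) and retinoic acid (orange) library for the 8 called members and for Xbp1, Dnajb9, Sdf2l1 and Herpud1. Symbols mark libraries 1, 2 and 3, the line is the group mean and the bar its SD (n = 3), and the groups of Ero1l overlap while those of the other 7 called genes do not.

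Of the lectin chaperones, which hold glycoproteins through their trimmed sugars, Calr rose and Canx did not pass the test. Calr encodes calreticulin, the soluble one (ENSMUSG00000003814, mm10 chromosome 8, 84841850 to 84846934). It had 652, 707 and 674 CPM under vehicle, against 787, 837 and 842 CPM under retinoic acid. With no overlap it rose 1.21-fold, from 678 ± 27.6 under vehicle to 822 ± 30.4 under retinoic acid (SD, n = 3; log2 fold change 0.28, SE 0.06, adjusted p = 0.00498 by edgeR), and without any single library the adjusted p was at most 0.0338.

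Canx, its membrane-bound relative, had 491, 477 and 439 CPM under vehicle, against 536, 519 and 485 CPM under retinoic acid. Vehicle library 1 lay above retinoic acid library 3, and the log2 fold change was 0.13 (adjusted p = 0.237 by edgeR). Uggt1, the glucosyltransferase that returns misfolded glycoproteins to these lectins, had a log2 fold change of −0.05 (interval −0.20 to 0.11).

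Among the disulfide isomerases and oxidases, 2 of 8 rose. P4hb encodes protein disulfide isomerase itself (ENSMUSG00000025130, mm10 chromosome 11, 120560298 to 120573253) and was the most abundant member. It had 1182, 1253 and 1145 CPM under vehicle, against 1418, 1525 and 1279 CPM under retinoic acid. Retinoic acid library 3 lay just above vehicle library 2, so the groups stayed apart by a narrow margin. The 1.18-fold rise (log2 fold change 0.24, SE 0.07, adjusted p = 0.0351 by edgeR) did not pass with vehicle library 1 or 3, or retinoic acid library 1 or 2, left out (up to 0.165).

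Ero1l encodes ERO1-alpha, the oxidase that recharges protein disulfide isomerase (ENSMUSG00000021831, mm10 chromosome 14, 45283092 to 45318572), and had the highest log2 fold change of the 46. It had 499, 543 and 411 CPM under vehicle, against 899, 865 and 534 CPM under retinoic acid. Library 3 was the lowest of each group, and retinoic acid library 3 lay below vehicle library 2. It rose 1.58-fold, from 485 ± 66.97 under vehicle to 766 ± 201 under retinoic acid (SD, n = 3; log2 fold change 0.66, SE 0.15, adjusted p = 0.0113 by edgeR). Its adjusted p was 0.0674 with DESeq2. Leaving out library 1 or 2 of the retinoic acid group gave 0.0569 and 0.0533 by edgeR, and leaving out library 3 of that group raised the log2 estimate to 0.86.

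Ero1l is also a known target of the hypoxia-inducible factor HIF, so 15 other HIF targets, chosen after the values of Ero1l were seen, are given beside it. All 15 had their lowest retinoic acid value in library 3, and 12 had their lowest vehicle value in library 3. The same held for 23 and 28 of the 46 tested members, and for 38.2% and 35.9% of all tested rows. Their summed level was 5499, 5862 and 5152 CPM under vehicle, against 7091, 7103 and 5401 CPM under retinoic acid. Of the 15, 4 rose (Vegfa, Adm, Slc2a1 and Car9) and 0 fell. Slc2a1 and Car9 did not pass without retinoic acid library 1 or 2 or vehicle library 1, nor Slc2a1 without vehicle library 2 and Car9 without vehicle library 3 (adjusted p up to 0.0944 and 0.179 by edgeR), and Car9 passed neither DESeq2 (0.22) nor limma-voom (0.0517). The part of this pattern in the level of Ero1l was not tested.

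**Figure D4:**
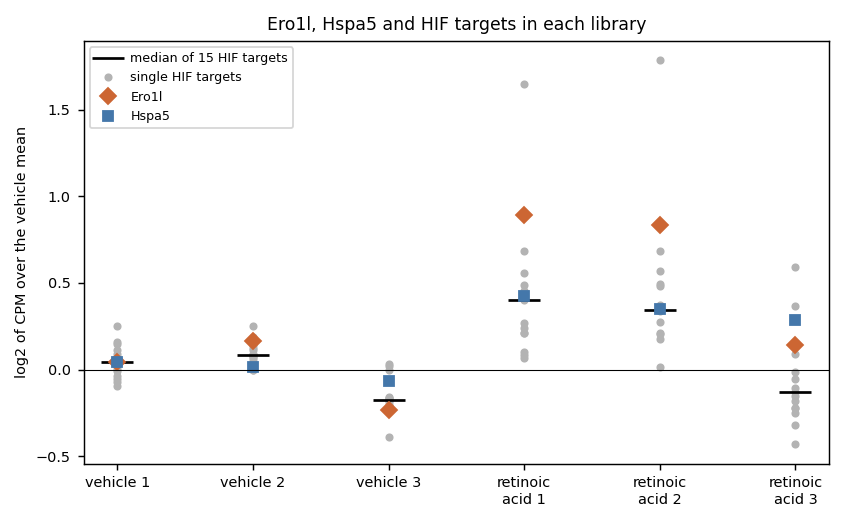
Log2 of CPM over the vehicle mean (y axis) in each of the 6 libraries (x axis) for Ero1l, Hspa5, each of 15 HIF targets (grey) and their median (black line). In retinoic acid library 3, Ero1l stood at 0.14 and the HIF median at −0.13, against 0.89 and 0.40 in retinoic acid library 1, while Hspa5 stood at 0.28 and 0.42.

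The paralogue Ero1lb was scarce, at 3.41, 5.03 and 5.79 CPM under vehicle, against 4.45, 3.93 and 3.79 CPM under retinoic acid, with a wide interval (−0.69 to 0.25 on the log2 scale). The isomerases Pdia3, Pdia4 and Pdia6 had log2 fold changes of 0.08, 0.16 and 0.14, and Erp44, which retrieves ERO1 and its clients from the Golgi, had 0.16. None of these 4 was called by edgeR (adjusted p from 0.112 to 0.506). Erp44 passed once retinoic acid library 3 was left out (0.0168). Pdia5, at about 5 to 6 CPM, was lower in all 3 retinoic acid libraries and not called (adjusted p = 0.596). The prolyl isomerases Fkbp2 and Fkbp11 had 0.07 and 0.12, with no call.

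All 5 translocon members had a log2 fold change above 0, and 1 of them was called. Sec61a1 encodes the pore subunit of the SEC61 channel (ENSMUSG00000030082, mm10 chromosome 6, 88503601 to 88518905). Its levels were 481, 475 and 479 CPM under vehicle, against 552, 538 and 569.9 CPM under retinoic acid. The vehicle libraries were nearly equal, and all retinoic acid libraries lay above them (1.16-fold; log2 fold change 0.21, SE 0.05, adjusted p = 0.0199 by edgeR). Its call was lost without any 1 of 4 libraries: vehicle 1, 2 or 3 or retinoic acid 1 (up to 0.0769).

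Sec61b, a small subunit of the channel, had 10.3, 8.65 and 8.42 CPM under vehicle, against 11.4, 11.9 and 10.8 CPM under retinoic acid, and its groups did not overlap (log2 fold change 0.31, adjusted p = 0.190 by edgeR). Ssr1, Ssr2 and Ssr3, subunits of the TRAP complex that assists the channel, had log2 fold changes of 0.16, 0.14 and 0.17, none of them called. When retinoic acid library 3 was left out, Ssr1 (log2 fold change 0.21, adjusted p = 0.0302 by edgeR) and Ssr3 (0.24, 0.0156) passed. Wfs1, the ER membrane protein mutated in Wolfram syndrome (ENSMUSG00000039474, mm10 chromosome 5, 36966104 to 36988982), had 58.9, 67.2 and 58.4 CPM under vehicle, against 75.8, 82.98 and 73.5 CPM under retinoic acid. It rose 1.26-fold with no overlap (log2 fold change 0.33, SE 0.08, adjusted p = 0.0139 by edgeR), and lost the call without vehicle library 1 or 3 or retinoic acid library 2 (up to 0.0706).

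None of the 8 sensors and transcription factors was called. Ern1, the gene of the general IRE1, had 165, 145 and 152 CPM under vehicle, against 157, 154 and 154 CPM under retinoic acid. Eif2ak3, the gene of PERK, had 55.4, 56.7 and 54.9 CPM under vehicle, against 55.8, 56.4 and 57.6 CPM under retinoic acid. In both genes the group ranges overlapped. The intervals of the log2 fold changes were −0.12 to 0.15 and −0.12 to 0.17. Both end below the estimate for Calr (0.28), whose own interval ran from 0.16 to 0.40, and no test compared these genes.

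Atf6 had 166, 147 and 154 CPM under vehicle, against 181, 168 and 159.5 CPM under retinoic acid (log2 fold change 0.12, interval −0.02 to 0.27), and its relative Atf6b had −0.12 (−0.31 to 0.08). Xbp1, the mRNA that IRE1 splices into a transcription factor, had 316, 320.1 and 277 CPM under vehicle, against 358, 348 and 312 CPM under retinoic acid. Retinoic acid library 3 lay below all but 1 vehicle library, and the log2 fold change of 0.16 did not pass edgeR's test (adjusted p = 0.208), but did once retinoic acid library 3 was left out (0.0372). Gene counts do not separate spliced from unspliced Xbp1.

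Ern2, the IRE1 of gut goblet cells, had 35.4, 37.2 and 28.96 CPM under vehicle, against 30.3, 30.8 and 30.3 CPM under retinoic acid. Vehicle library 3 was the lowest of the 6, so the groups overlapped (log2 fold change −0.15, interval −0.36 to 0.05). Creb3l1, an ER-anchored transcription factor also called OASIS, had 96.3, 91.6 and 81.3 CPM under vehicle, against 75.7, 81.2 and 69.1 CPM under retinoic acid. All retinoic acid values lay below all vehicle values, by a margin of under 0.2 CPM, and the log2 fold change of −0.25 (interval −0.43 to −0.08) did not pass edgeR's test (adjusted p = 0.0633). DESeq2 gave 0.0492, and edgeR without vehicle library 3 gave 0.0256. Its relative Creb3l2 had 44.6, 50.04 and 38.2 CPM under vehicle, against 45.7, 47.6 and 44.6 CPM under retinoic acid, with wide overlap.

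The ER-associated degradation factors, which extract misfolded proteins for the proteasome, had a summed level of 994 to 1027 CPM under vehicle and 1002 to 1027 CPM under retinoic acid. Of 8 tested members 0 rose and 0 fell by edgeR. By comparison, the summed level of the 11 HSP70 and HSP90 chaperones with their cochaperones was 1885 to 1985 CPM under vehicle and 2235 to 2379 CPM under retinoic acid. Much of that difference lies in Hspa5, with a mean of 920.5 CPM under vehicle and 1176 CPM under retinoic acid. Of the 11 genes, 8 were not called. Herpud1, a membrane adaptor of the degradation complex and a marker of ER stress, had 149.98, 145 and 154 CPM under vehicle, against 132, 134 and 144 CPM under retinoic acid. The retinoic acid libraries lay below the vehicle ones by a small margin (log2 fold change −0.13, adjusted p = 0.236 by edgeR).

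Sel1l and Syvn1, the adaptor and the ubiquitin ligase at the centre of that complex, went in opposite directions without a call (0.14 and −0.12). The mannose-trimming factors Edem1, Edem2 and Edem3 had log2 fold changes of 0.09, 0.02 and −0.02, and the channel-like derlins Derl1 and Derl2 had 0.01 and 0.01. Derl3, a derlin of secretory glands and plasma cells, was the 1 member too scarce to test, with 4, 0 and 5 reads under vehicle and 3, 5 and 9 under retinoic acid.

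Levels between genes were compared per length, as reads per kilobase of exon and per 1000000 reads (RPKM), with GENCODE M21 exon lengths. The median member stood at 22.1 RPKM with vehicle, against 7.05 over tested rows with a length. P4hb (417 ± 19.3; SD, n = 3), Calr (235 ± 9.6) and Hspa5 (218 ± 8.61) were the highest, and Hspa5 stood above 98.9% of tested rows. Calr and Hspa5 differed by less than the sum of their SDs. At the other end stood Pdia5 (2.12 ± 0.0482), Ero1lb (0.713 ± 0.183) and Derl3, under 0.2 RPKM in every vehicle library. Among the sensors, Ern1 (18.8 ± 1.25) and Atf6 (16.9 ± 1.06) were above Ern2 (11.4 ± 1.46) and Eif2ak3 (9.23 ± 0.154), and Xbp1 (93.7 ± 7.299) was far above all 4.

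More of the abundant members were called: 6 of the 24 tested members at or above the median RPKM rose, and 2 of the 22 below it (Sil1 and Wfs1). The median log2 fold change was 0.14 in the upper set and 0.03 in the lower. These are descriptions of the same fit, with no test of the difference. The share of all tested rows called at matching levels was not computed, so whether the split is particular to the members was not tested. Members with and without an ERSE match, whose sequences are given above, can be set side by side in the same way. Of the 9 tested with a match, 3 rose (Hspa5, Hsp90b1 and Calr) and the median log2 fold change was 0.14. Of the 28 without one, 3 rose (P4hb, Ero1l and Wfs1) and the median was 0.06. The range among those with a match, −0.22 to 0.35, lay within that of the 28, −0.27 to 0.66. Of the 9 members whose windows were not analysed, 2 rose (Sec61a1 and Sil1) and the median was 0.14.

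**Figure D5:**
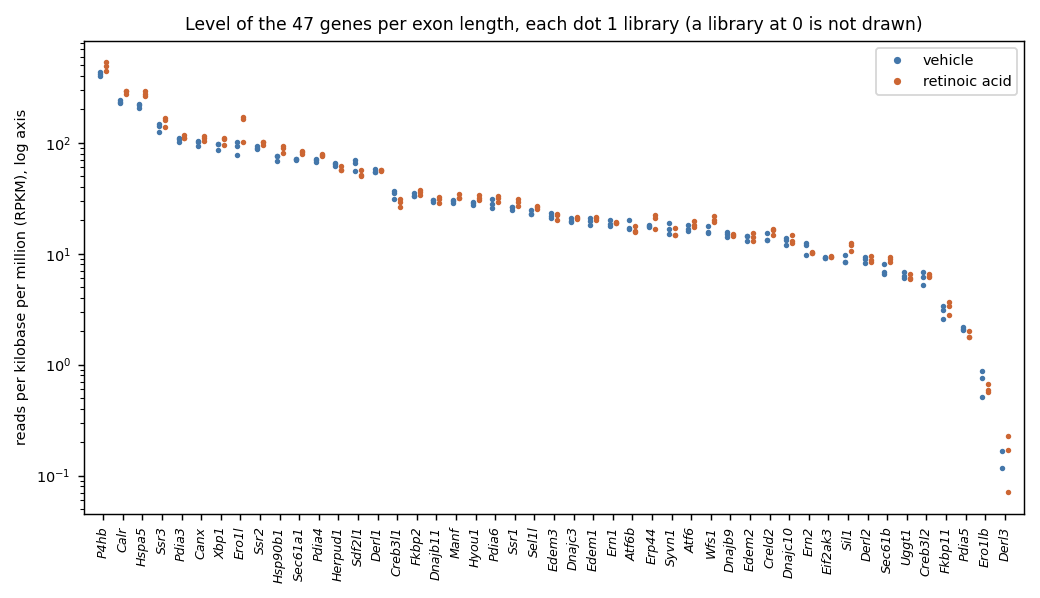
RPKM (y axis, log scale) of the 47 genes (x axis, ordered by the vehicle mean), with 1 dot per library. P4hb, Calr and Hspa5 lead, Derl3 is last, and the vehicle and retinoic acid dots of most genes lie side by side.

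Other genes of ER function, in 7 lists that share no gene with the members, were called higher at close to the background rate. Of 119 tested, 7 rose (5.88%) and 1 fell (0.84%), and the median log2 fold change was 0.04. Like the members, they leaned upward: 80 of the 119 log2 fold changes were above 0, where 48% of all tested rows were. All retinoic acid libraries lay above all vehicle libraries for 22 of the 119, and below them for 4. Over all tested rows these shares were 12.9% and 12.6%. In the oligosaccharyltransferase and glucosidase list 3 of 14 rose: Rpn1 (408, 390.3 and 419.9 CPM under vehicle, against 470.5, 475 and 493 CPM under retinoic acid), Dad1 (log2 fold change 0.24) and Krtcap2 (0.30), all subunits of the enzyme that attaches N-glycans. In the list of the PERK and ATF4 branch 2 of 10 rose. Ddit3, the gene of the stress factor CHOP, had 100.04, 94.7 and 98.8 CPM under vehicle, against 114, 126 and 110.4 CPM under retinoic acid (log2 fold change 0.26, SE 0.07, adjusted p = 0.0271 by edgeR). Ppp1r15b, a phosphatase subunit that reverses the PERK signal, had a log2 fold change of 0.22.

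Ddit3 passed in 1 of the 6 leave-outs, that of retinoic acid library 3 (adjusted p up to 0.132 by edgeR). Ppp1r15b did not pass without vehicle library 2 or 3 or retinoic acid library 1 (up to 0.108), nor Dad1 without vehicle library 1 or 2 or retinoic acid library 2 (up to 0.0977). Krtcap2 did not pass without library 1 or 2 of either group (up to 0.183), and Rpn1 without vehicle library 2 (0.0683). Atf4 itself had 987, 868 and 948 CPM under vehicle, against 990.3, 982 and 996 CPM under retinoic acid, with no call (adjusted p = 0.459). Among 27 further folding factors Qsox1, a sulfhydryl oxidase, rose (log2 fold change 0.32, adjusted p = 0.00816 by edgeR) and stayed called without any single library. Agr2, a disulfide isomerase that goblet cells need for mucin, fell (−0.50), though not past the threshold without vehicle library 1 or 2 (up to 0.0678). Of 20 further degradation factors Rhbdd1, a rhomboid protease, rose (0.24), and of the 6 leave-outs it passed in that of retinoic acid library 3 (up to 0.213 in the others). None of 11 other sensors and proteases, 19 translocation and signal peptidase genes or 18 COPII coat and cargo receptor genes was called.

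Markers of secretory cells, which make heavy use of the ER, were called in both directions. Of the 6 tested Paneth markers Mmp7 was higher and Ang4 and Mptx1 lower, with a summed level of 5414 to 5847 CPM under vehicle and 4921 to 5223 CPM under retinoic acid. Of the 7 goblet markers Clca1 (Clca3 in the table) rose 7.55-fold, with 109, 115 and 86.8 CPM under vehicle, against 848, 671 and 829.6 CPM under retinoic acid. Spdef, a goblet and Paneth cell factor, was lower (−0.30), but passed only in the leave-outs of library 3 of either group (adjusted p up to 0.130 by edgeR). The goblet markers summed to 4551 to 5083 CPM under vehicle and 4828 to 5327 CPM under retinoic acid. Without Clca1, a split made after its values were seen, the other 6 summed to 4973, 4698 and 4464 CPM under vehicle, against 4088, 4157 and 4498 CPM under retinoic acid. That turns the direction of the sum, with library 3 of the groups at about the same level. Most of this second sum is Fcgbp, with 4190, 3929 and 3802 CPM under vehicle, against 3379, 3497 and 3737 CPM under retinoic acid. Fcgbp was not called (adjusted p = 0.0788 by edgeR). Lyz1, the Paneth lysozyme, had 3700.4, 3958 and 3709 CPM under vehicle, against 3205, 3419 and 3520.1 CPM under retinoic acid, with no call (adjusted p = 0.0720 by edgeR; 0.0206 without retinoic acid library 3). Muc2, the main intestinal mucin, had a log2 fold change of −0.26 and Atoh1, the secretory lineage factor, of −0.22, with no call. Leave-outs moved Muc2 from −0.19 to −0.41, where it passed without retinoic acid library 3 (adjusted p = 0.00116 by edgeR). Atoh1 moved from −0.12 to −0.31 and passed without vehicle library 3 (0.0297). Bhlha15, which enlarges the secretory machinery, had 0.16, also not called. Of 6 plasma and B cell markers Sdc1, which epithelial cells also express, had 809, 838 and 799.7 CPM under vehicle, against 734, 739 and 762 CPM under retinoic acid, lower in every retinoic acid library and not called (adjusted p = 0.148). The other 5, among them Jchain and Mzb1, were at most 0.516 CPM in any library. The part of secretory cell numbers in the members' levels was not tested.

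In the authors' deposited table, whose statistics rest on these counts, 7 of the 47 genes are given as higher and 0 as lower at an FDR under 0.05. These are the 8 called here without Ero1l, whose FDR in the authors' deposited table is 0.104. The share of all rows with an FDR under 0.05 by the authors' statistics was not computed, so these counts have no background beside them.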

How the data were processed

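The members and gene lists were chosen with earlier results of these data known. Directional polyA libraries were made from organoid RNA, per the labels' protocols. The data are raw read counts per gene in 6 libraries, as deposited by the authors in 1 table aligned to mm10, per the submitters' processing notes. The table also carries the authors' own statistics from DESeq (a p-value, its FDR and log2 fold changes with and without shrinkage), per the file headers. The aligner, the annotation and the strand setting were not given in the sources used here.

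Groups came from sample titles. Counts were fitted with edgeR 4.0.16 in R 4.3.3: filterByExpr (13700 of 21534 rows kept, about 99.9% of each library's reads), TMM (factors 0.978 to 1.02) and a two-sided quasi-likelihood test of treatment over all kept rows, with Benjamini-Hochberg adjustment at 0.05. The biological coefficient of variation was 7.81%. SE is the log2 fold change over the square root of F, and 95% intervals use the test's degrees of freedom. CPM are per 1000000 TMM-scaled reads, so a low count gives a coarse value, and intervals cover the spread between libraries. Current symbols came from gene IDs (21102 matched). No library repeated another (chi-square per row 3.96 to 10.5 within groups). The steps were tested on simulated counts. Alternatives used DESeq2 1.42.0, limma-voom 3.58.1, other filters and scaling, a replicate block and leave-outs. The rule for named genes took the called members, a fixed set of 16 and called genes of the other ER lists (up to 4 a list). It also took Atf4, Ddit3, Muc2, Lyz1, Atoh1, Spdef and Bhlha15. Values per library are given too for Hyou1, Canx, Ero1lb, Sec61b, Clca1, Fcgbp and Sdc1, which that rule did not name. Other members are mostly given by log2 fold change.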

Additional observations from a re-analysis of the deposited data

How the results depend on the processing

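The count of higher members (8) ranged from 3 to 12 with 1 library left out, the count of lower members (0) from 0 to 1 and the median log2 fold change (0.11) from 0.053 to 0.127. Higher calls over all rows (736 in the main fit) ranged from 443 to 978 in the same leave-outs. The cause was not tested. Without any filter on low counts 9 were higher (Ssr3 added, adjusted p = 0.0495) and 2 lower, and DESeq2 gave 7 and 1. With the replicate number as a block, 15 members were higher and 2 lower, and calls over all rows went from 736 higher and 560 lower to 1224 and 1052. Same-numbered libraries had deviations that correlated at 0.128, 0.0975 and 0.257, and each library correlated best with its own number, a hint from the data and not the design. Libraries of unlike number correlated at 0.0602 or lower. The deviations of the 3 libraries of a group sum to 0, so these correlations are not independent of each other. The sources used here state no design with a replicate term, so the unpaired fit was the main one and the block an alternative. An alternative chosen after seeing the data, without library 3 of both groups, gave 9 higher and 1 lower and a median of 0.067. DESeq2 size factors, limma-voom and a filter of 10 counts each gave 8 and 0. Over 64 named genes and 832 gene-by-setting values, 741 kept their side of the threshold, 59 lost a call, 32 gained one and 0 reversed. A change of sign counted as reversed only where the gene was called in either fit. The 741 therefore include uncalled genes whose sign changed, such as Dnajb9 (log2 fold change −0.05 to 0.02 across leave-outs). The median 95% interval of a member's log2 fold change spans 0.15 either way before adjustment, and the smallest called one was 0.21. Hyou1, Ssr3 and Xbp1, at 0.16 to 0.17, were not called. Size alone did not set the calls: Sec61b (0.31), Sdf2l1 (−0.27), Creb3l1 (−0.25) and Ero1lb (−0.22) were larger in size and not called either.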
